A study of Mus musculus with 6 samples.

Results

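The Trim genes encode the tripartite motif proteins, a family of mostly RING-type ubiquitin ligases, and were read in neutrophils of the dura mater, the outermost meningeal layer. A gene was included when it was protein-coding, had a symbol made of Trim and a number with or without letters after it, and had at least 10 counts in 3 or more libraries. Of 68 protein-coding Trim genes among the 21955 gene identifiers in the files, 41 met this rule and 27 did not. The 6 libraries of poly-A RNA were made from cells of wild-type mice taken after a social threat. Of them, 3 are labelled male and 3 female. All carry the same genotype and the same exposure, no unexposed group is analysed here. The sources used here do not give strain, age, pooling or the time since exposure. The labels do not say whether each library is a separate animal; p-values below therefore reflect only library-to-library spread, which may be technical. The question of the design is whether neutrophil state after the threat differs by sex.

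A ubiquitin ligase brings a ubiquitin-conjugating enzyme to a target protein, and the chain that is built there can mark the target for the proteasome or change what it binds. In Trim proteins the RING finger binds the conjugating enzyme, a B-box and a coiled coil let the protein pair and assemble, and the C-terminal domain chooses the target. Many members act in innate immunity: some add ubiquitin to sensors of viral RNA or to their adaptors, some bind viral capsids or antibody-coated particles in the cytosol, and several are themselves induced by interferon. Others work in chromatin silencing, on microtubules or in metabolism.

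Libraries held 17098026 to 20778410 counts, and the Trim genes took 0.157 to 0.174% of them. Neutrophil genes (S100a8, S100a9, Ngp and 10 others) summed to 57854 to 83232 CPM (library-size-scaled counts). Monocyte and macrophage markers summed to 2227 to 2498 CPM, B cell markers to 339 to 540 CPM and dendritic cell markers to 385 to 549 CPM. The sum of 4 Y-linked genes was 313 ± 5.88 CPM in the male-labelled libraries and 322 ± 8.94 CPM in the female-labelled ones (SD, n = 3; exact two-sided permutation p = 0.3, where 3 against 3 cannot go below 0.1). Y-linked expression therefore contradicts the female label of 3 libraries. Directions below compare the labels as deposited, and no difference between the sexes of the mice is implied. Mitochondrially encoded genes took 10.7 to 13.1% of counts in the male-labelled libraries and 6.42 to 8.49% in the female-labelled ones (exact two-sided permutation p = 0.1).

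Levels of the 41 genes, as CPM per kilobase of exon over all libraries, ranged from 0.184 for Trim47 to 46.3 for Trim30a, with a median of 5.19. Trim30a and the chromatin regulator Trim28, at 44.0 CPM per kilobase, stood highest. Trim25 (21.8), Trim11 (20.9), Trim12c (18.7) and Trim59 (18.4) followed. At the low end, Trim34b just met the rule with 10, 10 and 14 counts in the male-labelled libraries and 8, 3 and 6 in the female-labelled ones. Trim38 just missed it with 12, 11 and 8 against 4, 5 and 3 counts, as did Trim69 with 12, 4 and 6 against 13, 1 and 7. Of the 27 genes under the rule, 9 had no count in any library (Trim31, Trim42, Trim50, Trim52, Trim54, Trim60, Trim61, Trim75 and Trim80). A count of 0 allows a level of up to 3 counts, which is 0.149 to 0.179 CPM in these libraries, from counting error alone. Both genes placed in an erythroid group, Trim10 and Trim58, were under the rule with at most 8 counts in any library.

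**Figure D1:**
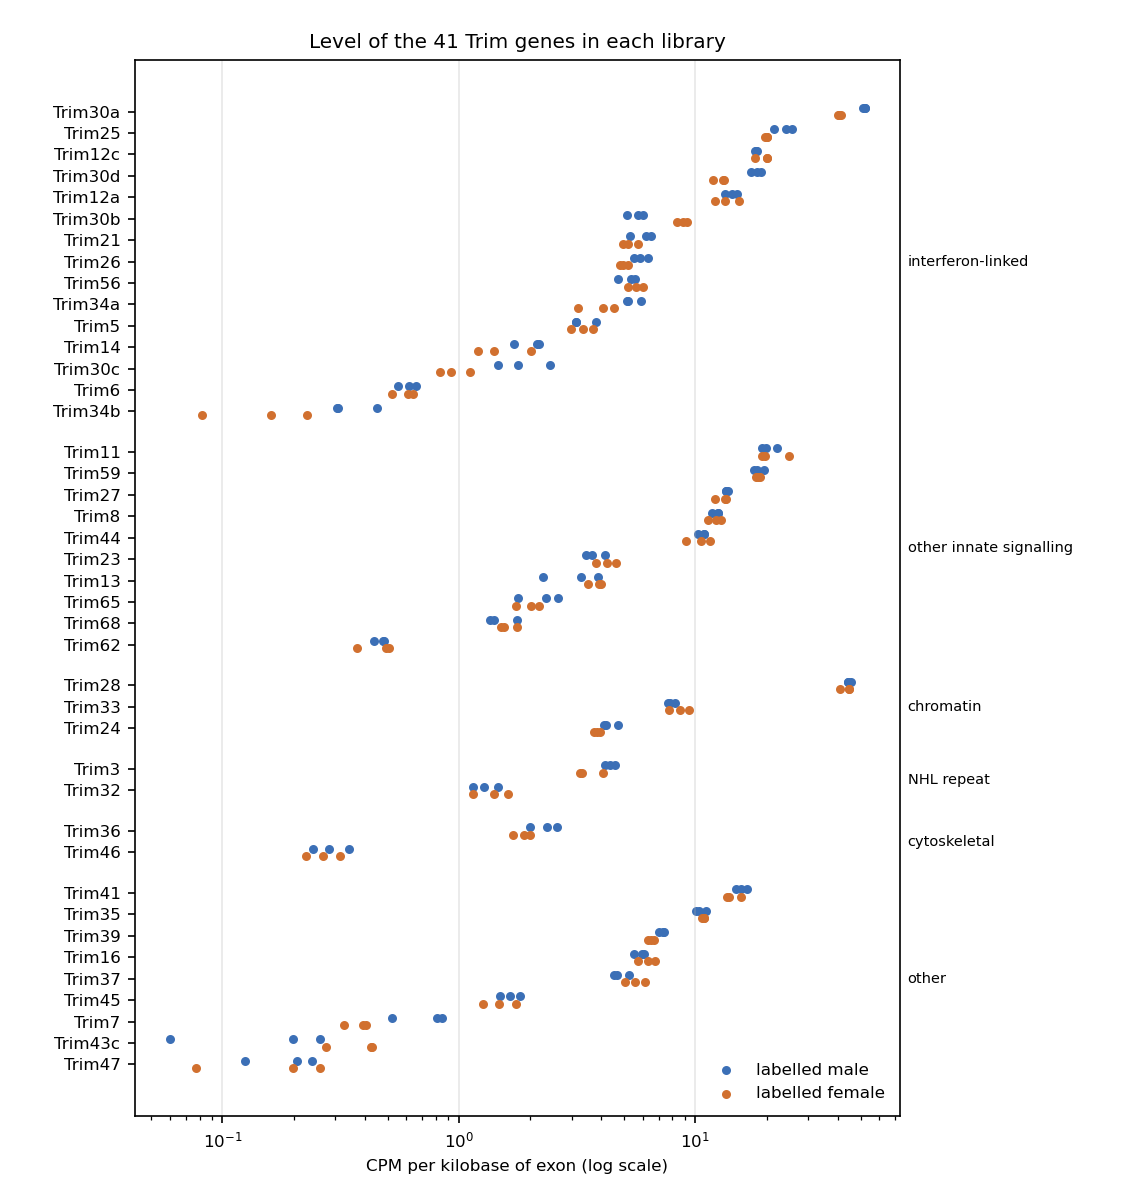
CPM per kilobase of exon (log scale) of the 41 Trim genes in each of the 6 libraries, ordered by level within role groups. Trim30a and Trim28 stand highest, and for most genes outside the interferon-linked group the 3 libraries labelled male and the 3 labelled female share a range.

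Between the groups, 1 Trim gene rose and 6 fell in the libraries labelled female, out of 40 tested. Trim30b rose, and Trim30a, Trim30c, Trim30d, Trim34a, Trim25 and Trim7 fell. A gene was called when edgeR's quasi-likelihood test gave a Benjamini-Hochberg adjusted p under 0.05 over all 11903 genes tested. In either direction, 7 of 40 Trim genes were called, 17.5% against 13.9% of all genes. Lower calls made up 15.0% of the Trim genes against 6.62% of all genes, and higher calls 2.5% against 7.29%. The 2 groups had separate ranges for 12 Trim genes, 30% against 30.9% of all genes. Of these, 11 were lower (27.5% against 15.0%) and 1 was higher (2.5% against 15.9%). The median log2 change, female minus male, was -0.06 over the 40 genes and 0.00 over all genes, and 28 of the 40 changes were negative. Without the library labelled male replicate 3 the lower calls were 2, and without female replicate 3 the higher calls were 3, with Trim33 and Trim37 added. The share of all genes called moved as well, to 7.51% in the first of these fits and 22.4% in the second. Trim43c, the member not tested, had 7, 9 and 2 counts in the male-labelled libraries and 16, 17 and 11 in the female-labelled ones.

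**Figure D2:**
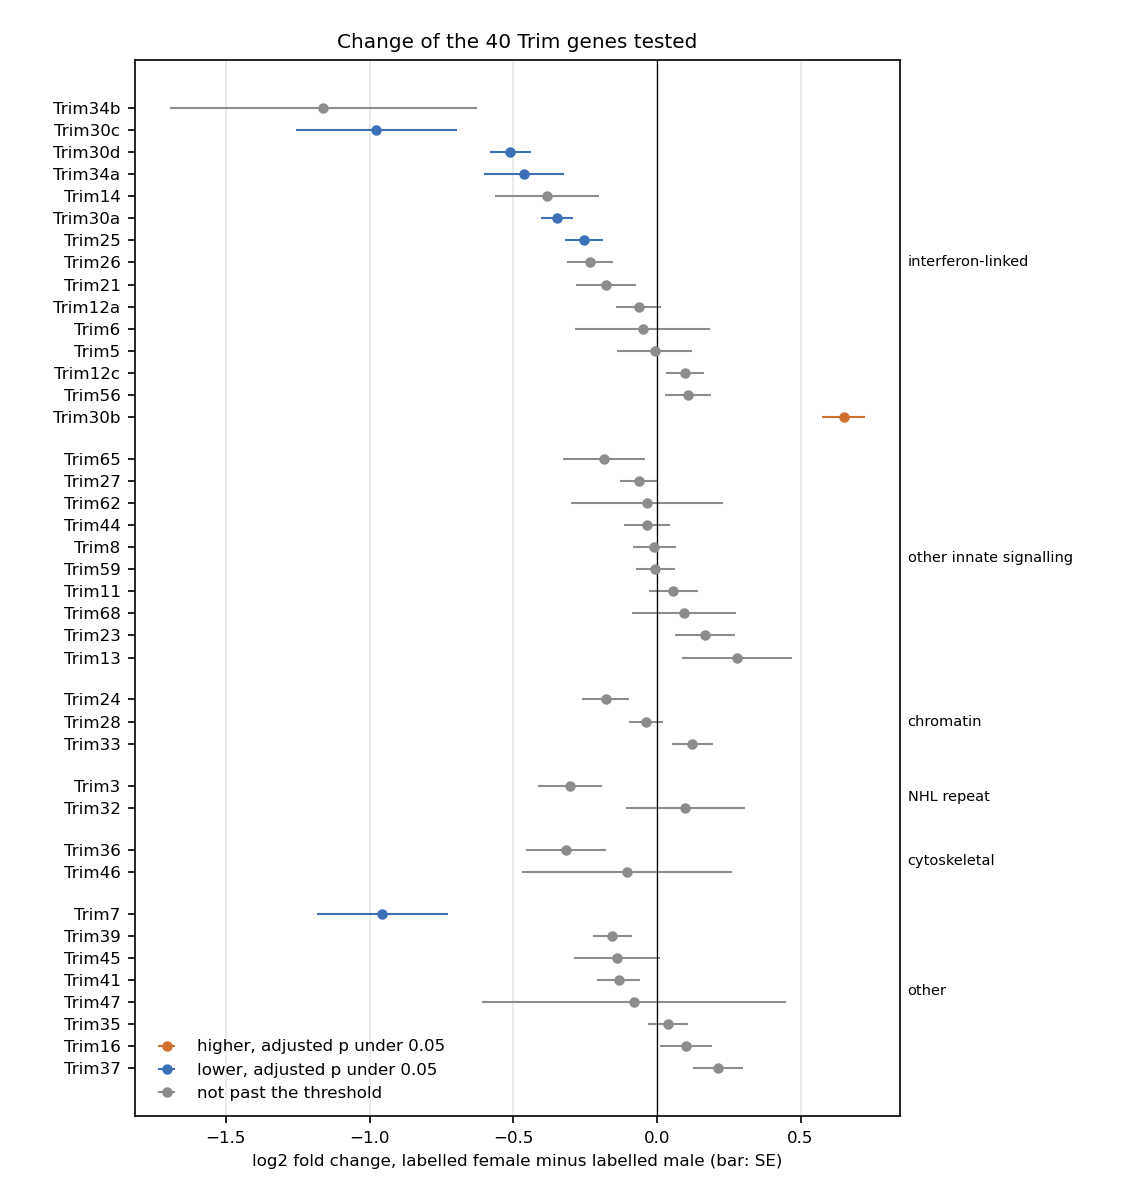
Log2 fold change (labelled female minus labelled male) of the 40 Trim genes tested, with its SE as a bar, in role groups. The 6 lower calls and the higher call of Trim30b stand mostly in the interferon-linked group, and the 10 genes of other innate signalling lie between -0.18 and 0.28.

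Called genes lay mostly in the interferon-linked group, 15 genes with a known link to interferon induction or antiviral signalling. The group was drawn up with earlier results of these data known, so this placing is not an independent result. There, 1 rose and 5 fell, 40% called against 13.9% of all genes, and the median log2 change was -0.23. Outside it, 1 of 25 tested genes was called, Trim7 (4% against 13.9%), with a median log2 change of -0.04. An unadjusted p under 0.05 by edgeR was found for 6 of the 25 and for 3282 of all 11903 genes. The summed level of the interferon-linked genes was 763 ± 18.02 CPM in the male-labelled libraries and 687 ± 10.9 CPM in the female-labelled ones. That of 10 genes of other innate signalling was 363 ± 1.40 and 363 ± 4.26 CPM. Lower calls in the interferon-linked group numbered 3 without male replicate 1 or 2 and 2 without male replicate 3.

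The 4 Trim30 genes form a rodent set of close paralogs on chromosome 7, and they moved in opposite directions. Trim30a (ENSMUSG00000030921), best known as a brake on NF-kB activation downstream of Toll-like receptors, had 215, 209.8 and 214 CPM in the male-labelled libraries and 167, 165 and 170.3 CPM in the female-labelled ones. The groups lay far apart relative to the spread within each. The change was -0.35 on the log2 scale (SE 0.056, 1.27-fold, adjusted p = 0.000202 by edgeR). Trim30d (ENSMUSG00000057596) had 64.7, 71.5 and 68.6 CPM against 49.3, 49.8 and 44.7 CPM. It too was lower in every library labelled female, by 1.42-fold (log2 -0.51, SE 0.071, adjusted p = 3.85e-05 by edgeR).

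Trim30b (ENSMUSG00000052749) was the exception. It had 43.0, 38.6 and 45.3 CPM in the male-labelled libraries and 66.7, 62.7 and 69.6 CPM in the female-labelled ones. All 3 libraries labelled female were above all 3 labelled male, and the gene rose 1.57-fold (log2 0.65, SE 0.075, adjusted p = 3.86e-06 by edgeR). Trim30c (ENSMUSG00000078616), the least abundant of the set, had 4.18, 2.51 and 3.04 CPM against 1.43, 1.92 and 1.59 CPM. It fell 1.97-fold (log2 -0.98, SE 0.28, adjusted p = 0.0232 by edgeR), with the widest error of the set. The calls of Trim30a, Trim30b and Trim30d held in all 14 alternatives. That of Trim30c was lost without male replicate 1 (adjusted p = 0.133), male replicate 3 (0.0547) or female replicate 1 (0.0943).

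As a share of the summed CPM of the Trim30 genes, not corrected for length, Trim30b took 13.2, 11.96 and 13.7% in the male-labelled libraries and 23.4, 22.4 and 24.3% in the female-labelled ones. Trim30a went from 65.2 ± 0.553 to 59.1 ± 0.392%, Trim30d from 20.9 ± 1.20 to 16.9 ± 1.16% and Trim30c from 0.992 ± 0.258 to 0.581 ± 0.0946% (SD, n = 3). The ratio of Trim30a to Trim30b was 5.06 ± 0.360 in the male-labelled libraries and 2.53 ± 0.0933 in the female-labelled ones. The summed level of the set went from 327 ± 4.44 to 283 ± 3.58 CPM. The sources used here do not say how reads matching more than one paralog were counted, so the split between these genes is uncertain.

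**Figure D3:**
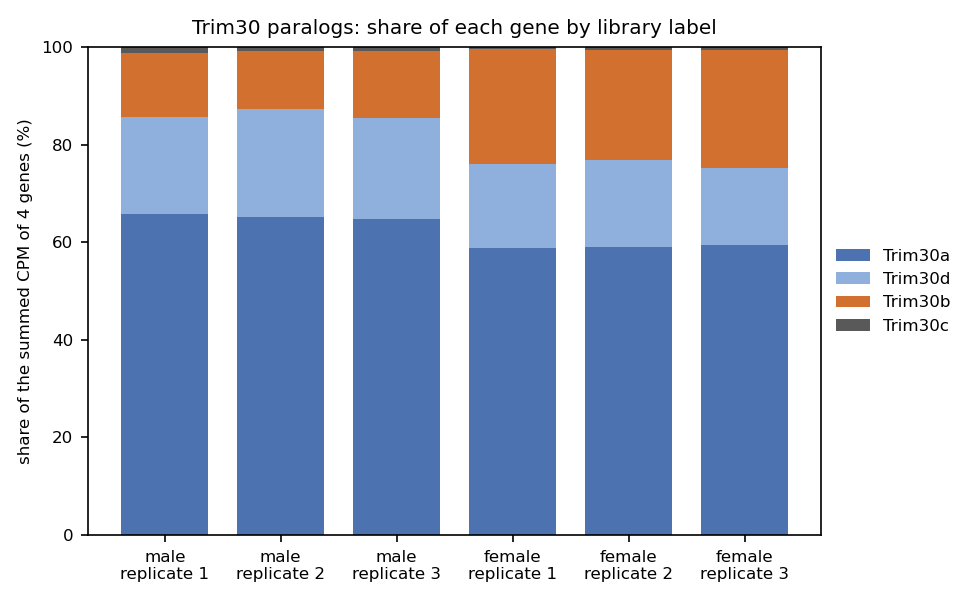
Share of the summed CPM of the Trim30 genes (percent) taken by Trim30a, Trim30b, Trim30c and Trim30d in each of the 6 libraries. Trim30b took 11.96 to 13.7% in the male-labelled libraries and 22.4 to 24.3% in the female-labelled ones.

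Upstream sequence of the 4 genes is shown because genes of this set changed in opposite directions. Whether the sequence bears on these directions was not tested. Each stretch is from RefSeq on GRCm38.p6, on the minus strand, aligned to that of Trim30d. Capitals mark the place of the interferon-stimulated response element (ISRE) core, the motif that interferon-activated transcription factors bind, read here as GAAANNGAAA on either strand. The stretches are chr7:104507861-104507980 for Trim30d, chr7:104465200-104465319 for Trim30a, chr7:104400886-104401005 for Trim30c and chr7:104369874-104369996 for Trim30b. The last runs from 115 bases before to 8 bases after an upstream start that GENCODE gives to Trim30b and that RefSeq lists under Gm38525.
Trim30d: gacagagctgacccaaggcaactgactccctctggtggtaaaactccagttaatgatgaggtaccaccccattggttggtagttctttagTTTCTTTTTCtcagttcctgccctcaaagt
Trim30a: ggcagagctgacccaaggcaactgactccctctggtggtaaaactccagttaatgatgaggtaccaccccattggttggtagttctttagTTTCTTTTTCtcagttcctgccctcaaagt
Trim30c: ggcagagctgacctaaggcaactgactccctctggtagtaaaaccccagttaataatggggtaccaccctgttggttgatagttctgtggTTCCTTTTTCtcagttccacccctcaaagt
Trim30b: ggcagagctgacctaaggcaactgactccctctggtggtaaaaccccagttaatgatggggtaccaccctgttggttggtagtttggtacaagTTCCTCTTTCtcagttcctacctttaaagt

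Trim30a was identical to Trim30d at 119 of 120 aligned bases (99.2%), and Trim30c and Trim30b each at 106 of 120 (88.3%). The stretch of Trim30b has 123 bases, and those without a partner in Trim30d were not counted. At a second start of Trim30a, not shown, the stretch also held the core and was identical at 108 of 119 (90.8%). Positions in the core are counted from 1 at its 5′ end, with the base of Trim30d first. Trim30c carried T3C, and Trim30b carried T3C and T6C, and neither held the core. Position 6 lies in the 2-base gap where any base matches, so T3C, shared by both, is the change that removes the match. Trim30c fell (log2 -0.98) and Trim30b rose (0.65). The stretch of Trim30c lies 227 to 108 bases before its start. The RefSeq window of the downstream start of Trim30b held no core and could not be aligned to Trim30d.

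Trim25 (ENSMUSG00000000275, chromosome 11) adds ubiquitin to the viral RNA sensor RIG-I and also conjugates the ubiquitin-like protein Isg15. It had 124, 139 and 147 CPM in the male-labelled libraries and 116, 115 and 113 CPM in the female-labelled ones. The groups did not overlap, and the libraries labelled male spread more widely. The change was 1.19-fold (log2 -0.25, SE 0.066, adjusted p = 0.0137 by edgeR), and it was not called without male replicate 2 (adjusted p = 0.0719) or male replicate 3 (0.13). Trim34a (ENSMUSG00000056144, chromosome 7), a relative of the capsid-binding Trim5, had 13.4, 13.3 and 15.2 CPM against 10.5, 11.7 and 8.23 CPM. It fell 1.38-fold (log2 -0.46, SE 0.138, adjusted p = 0.029 by edgeR). This call was lost without any 1 of 5 libraries, with adjusted p from 0.055 to 0.137, and held only without female replicate 2. Trim34a shares 609 exon bases with an antisense gene, and the library protocol describes no strand marking.

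**Figure D4:**
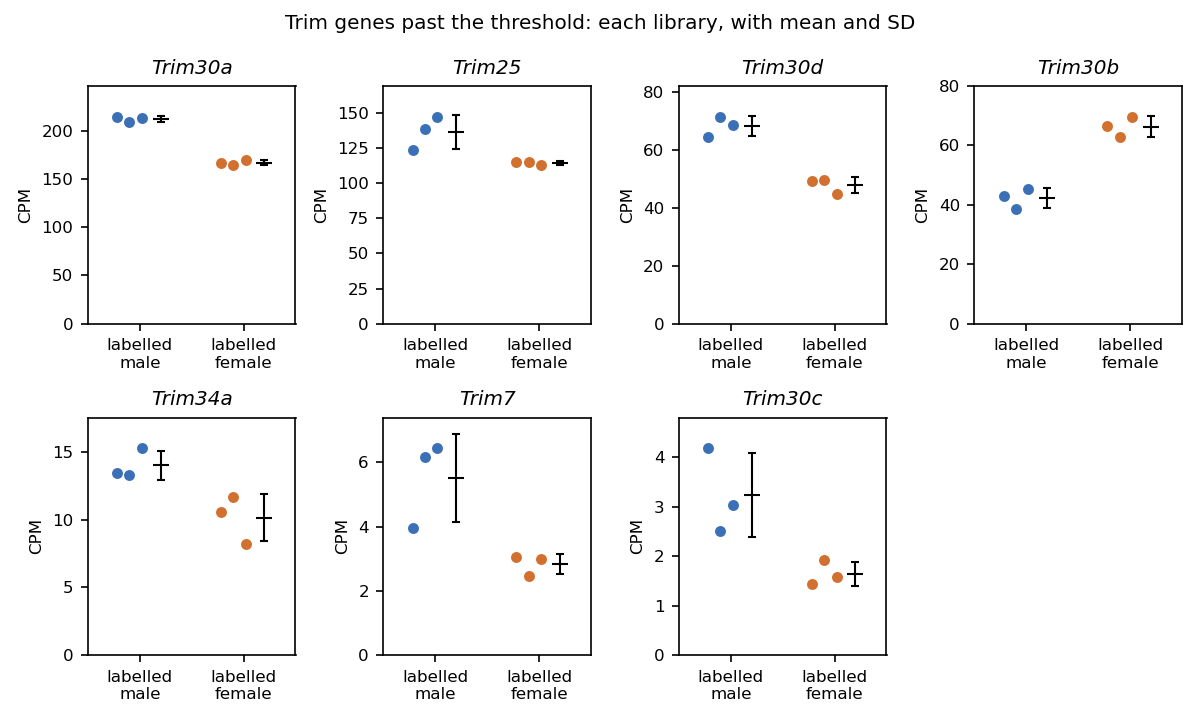
CPM of the 7 called Trim genes in each library, with the mean and SD of each group (n = 3) beside the points, on axes that start at 0. In each panel the 3 libraries labelled female lie wholly above (Trim30b) or wholly below (the other 6) those labelled male.

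The 9 other interferon-linked genes did not pass the test. Trim14, an adaptor of antiviral signalling at mitochondria, had 9.43, 9.24 and 7.45 CPM in the male-labelled libraries and 8.78, 6.10 and 5.21 CPM in the female-labelled ones (log2 -0.38, SE 0.18, adjusted p = 0.175 by edgeR). Its groups overlapped, and it was called without female replicate 1 (adjusted p = 0.0373). It shares 1356 exon bases on the opposite strand with Nans, at 60.4 CPM. Trim26, a regulator of the transcription factor Irf3, had 37.8, 43.2 and 39.97 CPM against 35.8, 34.1 and 33.1 CPM (adjusted p = 0.0572). Its groups did not overlap, and with upper-quartile factors it was called. Trim34b, under 1 CPM, was also lower without overlap (log2 -1.16, SE 0.535, adjusted p = 0.163). The remaining genes lay between -0.18 and 0.11: Trim21, the cytosolic antibody receptor (-0.18), Trim12a (-0.06), Trim6 (-0.05), Trim5 (-0.01), Trim12c (0.10) and Trim56 (0.11), which acts on the Sting pathway.

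Along chromosome 7 the genes Trim6, Trim34a, Trim5, Trim12a, Trim34b, Trim12c, Trim30b, Trim30c, Trim30a and Trim30d stand in this order. Of these 10, Trim30b was higher, 4 were lower and 5 were not called, 50% called against 13.9% of all genes. These are related genes, so their calls are not independent. Their median log2 change was -0.21. The 4 Trim30 genes at the end of the cluster were all called, and of the other 6 genes Trim34a was. Trim34a fell beside Trim6 and Trim5, whose groups overlapped, and Trim30b rose between Trim12c, which was not called, and Trim30c, which fell. The lower calls numbered 2 without male replicate 1, male replicate 3 or female replicate 1.

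**Figure D5:**
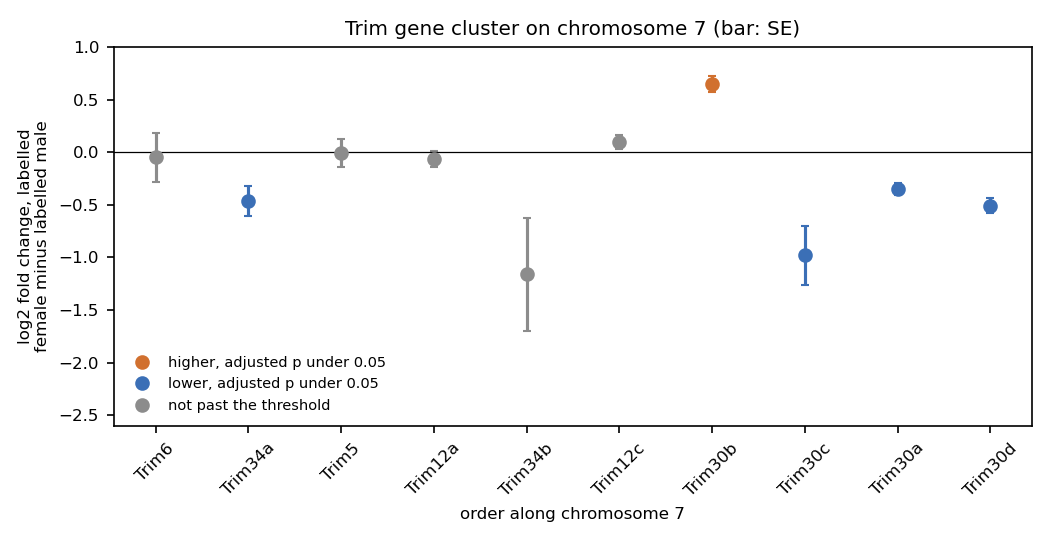
Log2 fold change (labelled female minus labelled male, bar: SE) of the 10 Trim genes of the chromosome 7 cluster, in their order along the chromosome. Trim30b lies at 0.65 and its neighbour Trim30c at -0.98, with Trim5, Trim12a, Trim6 and Trim12c within 0.10 of 0.

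Promoter windows of 250 bases before to 50 after the start were found in RefSeq for 31 of the 41 genes. The ISRE core stood in 8 of them, 25.8%, against 1079 of 27025 genes with a window (3.99%). All 8 were interferon-linked, 8 of 14 with a window, and the core was in none of 17 others. That group was itself chosen for a link to interferon. Of the 8, 6 lie in the chromosome 7 cluster of related genes, so the matches are not independent. Among the genes that fell, 3 of 6 held it (Trim30a, Trim30d and Trim34a), and so did 5 of 24 that were not called (Trim5, Trim12a, Trim12c, Trim21 and Trim26). A match describes letters in a window and is not a measured binding site. The sites outside the Trim30 genes are shown with the core in capitals, and a pair of overlapping cores where Trim21 and Trim26 have them. They lie at chr7:104244457-104244486 (plus strand) for Trim34a, chr7:104288136-104288165 (minus) for Trim5, chr7:104315466-104315495 (minus) for Trim12a, chr7:104353359-104353388 (minus) for Trim12c, chr7:102565447-102565476 (minus) for Trim21 and chr17:36836979-36837008 (plus) for Trim26, all on GRCm38.p6.
Trim34a: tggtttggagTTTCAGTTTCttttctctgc
Trim5: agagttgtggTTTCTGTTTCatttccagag
Trim12a: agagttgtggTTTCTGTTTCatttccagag
Trim12c: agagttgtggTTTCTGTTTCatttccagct
Trim21: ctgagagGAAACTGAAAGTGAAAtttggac
Trim26: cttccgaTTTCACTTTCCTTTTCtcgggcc

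Trim5 and Trim12a share all letters of this site, and neither changed past the threshold. Trim25, Trim30b, Trim30c, Trim7, Trim6, Trim34b and Trim56 had no core in their windows. No window was found for Trim3, Trim8, Trim11, Trim14, Trim16, Trim33, Trim35, Trim36, Trim43c and Trim65.

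None of the 10 genes of other innate signalling was called by edgeR, DESeq2 or limma-voom, and none had an unadjusted p under 0.05. The groups overlapped for each of them. Trim11, the most abundant per kilobase and a ligase of protein quality control, had 71.2, 68.8 and 79.6 CPM in the male-labelled libraries and 70.8, 68.2 and 89.5 CPM in the female-labelled ones (log2 0.06, SE 0.087, adjusted p = 0.718). Female replicate 3 was its highest library. The others were Trim13 of the endoplasmic reticulum (0.28), Trim23, which carries a GTPase domain (0.17), Trim68 (0.09), Trim59 (0.00), Trim8 (-0.01), Trim44 (-0.03), Trim62 (-0.04), Trim27 (-0.06) and Trim65 (-0.18), on the log2 scale.

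None of the 3 chromatin regulators was called by edgeR or DESeq2, and 1 (Trim24) had an unadjusted p under 0.05. Trim28, the corepressor that KRAB zinc finger proteins bring to transposable elements, had 184, 189 and 184 CPM in the male-labelled libraries and 169.7, 186 and 185 CPM in the female-labelled ones. The groups overlapped, and the change was -0.04 on the log2 scale (SE 0.059, adjusted p = 0.722 by edgeR). Trim24, a reader of histone tails, was lower without overlap (log2 -0.18, adjusted p = 0.164). Trim33, a regulator of Smad signalling, had a change of 0.12 (adjusted p = 0.279), and was called without female replicate 3.

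The NHL repeat genes were Trim3 and Trim32. Trim3 had 19.0, 20.9 and 19.95 CPM in the male-labelled libraries and 14.9, 15.1 and 18.5 CPM in the female-labelled ones. Its groups did not overlap, but it did not pass (log2 -0.30, SE 0.111, adjusted p = 0.0764 by edgeR). Without female replicate 3, the highest of its group, it was called. Trim32, known from a muscular dystrophy, was at 0.10. The cytoskeletal genes were Trim36 and Trim46, both of which bind microtubules. Trim36 had 9.83, 11.6 and 12.8 CPM against 9.26, 9.83 and 8.38 CPM (log2 -0.32, SE 0.139, adjusted p = 0.143). Its groups met at 9.83 CPM. Trim46 was near 1 CPM (log2 -0.10). It shares 239 exon bases with the opposite-strand gene Krtcap2, at 57.8 CPM.

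Of the 9 genes in no role group, 8 were tested and Trim7 was called. Trim7 (ENSMUSG00000040350, chromosome 11), first described as a partner of the glycogen primer glycogenin, had 3.95, 6.16 and 6.43 CPM in the male-labelled libraries and 3.07, 2.47 and 2.98 CPM in the female-labelled ones. All 3 libraries labelled female were lower, and the gene fell 1.94-fold (log2 -0.96, SE 0.228, adjusted p = 0.00735 by edgeR). The call was lost without male replicate 3 (adjusted p = 0.0543). Trim7 shares 140 exon bases with the opposite-strand gene Gm12184, at 2.64 CPM, and 491 with an antisense gene not analysed here. Trim41, the most abundant of these per kilobase, had 52.4, 58.3 and 54.6 CPM against 48.6, 47.6 and 54.5 CPM (log2 -0.13, SE 0.075, adjusted p = 0.263), and was called without female replicate 3 (adjusted p = 0.0463). The others ranged from -0.15 for Trim39, which was lower without overlap, to 0.21 for Trim37, a ligase of the centrosome. Between them were Trim45 (-0.14), Trim47 (-0.08), Trim35 (0.04) and Trim16 (0.10). Trim47 shares 225 exon bases with Trim65, a same-strand gene at 12.4 CPM.

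Among 12 genes of tripartite motif or related proteins without a Trim symbol, 6 were tested and 3 fell, 50% called against 13.9% of all genes. Pml, the organizer of nuclear bodies, fell from 99.4 ± 3.10 to 58.8 ± 2.95 CPM (SD, n = 3; 1.69-fold, log2 -0.76, SE 0.064, adjusted p = 6.43e-08). Mid1, a microtubule-bound ligase, fell 2.01-fold from 4.97 ± 0.724 to 2.47 ± 0.494 CPM (log2 -1.004, SE 0.23, adjusted p = 0.00544). Mefv, the inflammasome sensor pyrin, fell 1.16-fold from 75.5 ± 1.72 to 65.1 ± 3.35 CPM (adjusted p = 0.0315). The call of Mefv was lost without male replicate 1, 2 or 3 or female replicate 2 (adjusted p from 0.0685 to 0.123).

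Of the enzymes that supply Trim ligases with ubiquitin, 15 were tested and 1 fell, 6.67% called against 13.9% of all genes. Ube2l6, the conjugating enzyme of Isg15, fell from 53.8 ± 1.79 to 41.3 ± 4.39 CPM (1.30-fold, log2 -0.38, SE 0.08, adjusted p = 0.00267). Ube2d3 and Ube2n, the general and the chain-building partners of RING ligases, had changes of 0.13 each (adjusted p = 0.107 and 0.144). Of 16 partners of Trim28 in silencing, 2 were called, 12.5% against 13.9% of all genes. Sumo2 rose (log2 0.21, adjusted p = 0.0283 by edgeR) and the remodeller Chd3 fell (log2 -0.42, adjusted p = 0.00177). The call of Sumo2 held only without female replicate 3 among the 6 fits that leave out a library, and that fit gave 4 higher genes.

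Of 22 sensors and signalling partners of interferon induction, 9 fell and 1 rose, 45.5% called against 13.9% of all genes. Their median log2 change was -0.18. Irf7, the transcription factor that amplifies interferon production, fell from 138 ± 7.04 to 61.7 ± 6.48 CPM (2.23-fold, adjusted p = 1.16e-09 by edgeR). Stat2 fell from 114 ± 5.20 to 63.4 ± 4.05 CPM (1.80-fold, adjusted p = 2.51e-08). Isg15 fell from 26.2 ± 2.93 to 8.65 ± 1.62 CPM (3.03-fold, adjusted p = 4.19e-08). The gene that rose, named after its values were seen, was Tmem173, which encodes Sting (log2 0.23, adjusted p = 0.0443). It was not called with upper-quartile factors (adjusted p = 0.063), with DESeq2 (0.0552) or without mitochondrially encoded genes (0.0514), nor without male replicate 2, male replicate 3 or female replicate 2 (adjusted p from 0.117 to 0.239).

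Markers of some other cell types moved with the groups, and those of T and NK cells mostly did not. Of all genes, 13.9% were called. Of 11 B cell markers 8 fell, and their sum was 473 to 540 CPM in the male-labelled libraries and 339 to 428 CPM in the female-labelled ones. Of 11 dendritic cell markers tested 7 fell, with sums of 531 to 549 and 385 to 390 CPM. Of 12 monocyte and macrophage markers 2 rose and 1 fell, with sums of 2227 to 2291 and 2444 to 2498 CPM. Sums of T and NK cell markers were 155 to 182 and 146 to 178 CPM, which overlap. Those of endothelial markers were 62.4 to 68.6 and 52.1 to 61.7 CPM, and of fibroblast markers 18.2 to 26.1 and 11.5 to 16.8 CPM. In these 3 lists, 1 of 10, 0 of 4 and 2 of 4 tested markers were called, all of them lower. Of 8 erythroid markers tested 4 rose, with a median log2 change of 1.27, among them the globin gene Hbb-bs (2.90-fold, adjusted p = 1.54e-05 by edgeR). Their sums were 239 to 260.4 and 257 to 276 CPM, most of it Tfrc, the transferrin receptor (229 ± 10.4 and 213 ± 6.49 CPM). Of 13 neutrophil markers 9 rose, with sums of 57854 to 63913 CPM in the male-labelled libraries and 64861 to 83232 CPM in the female-labelled ones. None of the markers of these 8 lists was at 0 in all libraries. Their part in the Trim results was not tested, nor was that of the mitochondrial share; with mitochondrially encoded genes left out, the same 7 Trim genes were called. In bulk RNA, fewer cells of a type and less RNA per cell cannot be told apart.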

How the data were processed

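Poly-A RNA of dural neutrophils was sequenced in 6 libraries. The authors deposited raw counts per gene, with no normalization. The submitters' processing notes name HISAT2 2.0.5, cutadapt 1.15 and the build GRCm39 without their roles; which program counted reads, and how it treated strand or shared reads, the sources used here do not give. GENCODE release M21, on GRCm38, named 21847 of 21955 identifiers and gave exon lengths; its coordinates are not printed.

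The test was that of edgeR 4.0.16 under R 4.3.3 (TMM, filterByExpr at a minimum of 10 counts, quasi-likelihood, group as the only term, Benjamini-Hochberg adjustment over 11903 genes, threshold 0.05). CPM are TMM-normalized. SE was derived from the log2 change and its F statistic. Library sums were set against each other with an exact permutation test, two-sided. The common biological coefficient of variation was 0.0696. No library was a copy of another (chi-square per degree of freedom within groups 4.19 to 17.4). Female replicate 3 differed most from its group, at 14.1 and 17.4 from female replicates 1 and 2, which stood at 5.33 from each other. The pipeline was tested on simulated counts.

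The members and lists were chosen with earlier results of these data known. Values in every library are given for each called member, the most abundant member per kilobase of each role group and the 3 largest changes not called with a mean of at least 1 log2 CPM. In pathway lists, group means or log2 changes are given for up to 3 genes with the smallest adjusted p. Trim26, Trim34b and Trim43c were added once their values had been seen. The alternatives were edgeR with relative log or upper-quartile factors, limma-voom (limma 3.58.1), DESeq2 1.42.0, no filter, a filter of 10 counts in 3 libraries, no mitochondrially encoded genes, the replicate number as a block, and leaving out each library. Promoter sequences came from RefSeq (GRCm38.p6). Protein sequences were not used here.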

Additional observations from a re-analysis of the deposited data

How the results depend on the processing

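The same 7 Trim genes were called under each of the 8 alternatives that kept all libraries, and upper-quartile factors added Trim26. Leaving out each library in turn gave 1 to 3 Trim genes called higher and 2 to 7 called lower, and 439 to 1439 genes higher and 467 to 1269 lower over the whole table. The calls of Trim30a, Trim30b and Trim30d held in each of these fits, and no called gene reversed. Such fits have fewer libraries, so the loss of a call may come from that alone. With the replicate number as a block (replicate block), 1 Trim gene was higher and 6 lower, and 1007 genes were higher and 914 lower over the whole table. Deviations of same-numbered libraries correlated at -0.0386, 0.0646 and 0.0634 for numbers 1, 2 and 3. Those of differently numbered libraries ranged from -0.138 to 0.0904. With so few libraries, whether a shared number means shared handling cannot be told from these values. Genes of few counts, such as Trim34b, Trim47 and Trim46, have wide errors, and a change of the size seen in Trim30a was not detectable there.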
